A study of Mus musculus with 18 samples.

Results

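Hepatic stellate cells are a minor, vitamin A storing cell type of the liver sinusoid, and this account follows 10 genes of these cells and of the collagen matrix they make. The genes are Col1a1, Col1a2, Col3a1, Dcn, Lrat, Reln, Pdgfrb, Des, Hand2 and Rgs5. They were taken by gene name from the array annotation in the deposited scanner files, with every probe that carries 1 of these names. That gave 20 of the 41174 probes, of which 14 passed a filter that asks for a signal well above background on 6 or more arrays. All 10 genes could be read, of 17683 genes in the whole data set.

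Liver RNA came from 18 male CD-1 mice, 9 weeks old at the end of 28 days on a powdered diet, with 1 mouse per 1-colour Agilent array. The diets supplied bisphenol A, a weakly estrogenic building block of plastics, at 0 (control), 50 (low dose) or 5000 (high dose) µg per kg body weight per day, with 6 mice in each group. CD-1 is an outbred stock, and the label gives no transgene or deletion in any group. Each sample was a fragment of the large lobe, so every level is an average over all liver cells, and fewer cells of a type cannot be told apart from less RNA per cell.

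A stellate cell at rest esterifies retinol with the enzyme that Lrat encodes and keeps the esters in lipid droplets. In liver injury it loses these stores, becomes a myofibroblast and secretes collagens type I and III, the main fibres of scar. Hand2 encodes a basic helix-loop-helix transcription factor of embryonic mesenchyme that binds DNA as a dimer at the E-box CANNTG.

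The labelled tissue was checked first against its markers. All 9 stellate cell markers listed for this purpose (Lrat, Reln, Des, Pdgfrb, Cygb, Ecm1, Colec11, Rgs5 and Hand2) were well above background on all 18 arrays, as were the hepatocyte genes Alb and Hnf4a. The controls held the dimmest arrays before scaling, with a 75th percentile of intensity between 178.5 and 305.5 in controls, 228.0 and 351.0 at the low dose and 265.2 and 354.1 at the high dose. Arrays lay on 5 slides, 4 of which held all 3 groups. Each value is a log2 intensity relative to the 75th percentile of its own array, called a level from here on. They compare mice for 1 probe and say nothing of which gene is more abundant. Whether a probe lies in an exon or an untranslated region was not analysed here.

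The sequences just upstream of 4 of these genes show what the E-box looks like beside the genes that the results turn on. Hand2 is shown because it was the member that passed the threshold, Col1a2 and Col3a1 as a pair of collagens whose levels went together across mice, and Lrat as the retinoid storage gene. Each is the 250 bases before the start in RefSeq on GRCm38.p6, read 5′ to 3′ along the gene. Capitals mark the E-box letters CANNTG, the CCAAT box and the TATA box letters TATAAA, each searched on both strands. In Col3a1 a TATAAA and a CANNTG touch, so their capitals form a single run.
Hand2: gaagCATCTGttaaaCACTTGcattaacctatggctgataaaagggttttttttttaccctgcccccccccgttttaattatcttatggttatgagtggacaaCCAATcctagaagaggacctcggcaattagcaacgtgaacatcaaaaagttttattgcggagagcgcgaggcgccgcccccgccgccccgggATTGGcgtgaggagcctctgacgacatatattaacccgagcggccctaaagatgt
Col1a2: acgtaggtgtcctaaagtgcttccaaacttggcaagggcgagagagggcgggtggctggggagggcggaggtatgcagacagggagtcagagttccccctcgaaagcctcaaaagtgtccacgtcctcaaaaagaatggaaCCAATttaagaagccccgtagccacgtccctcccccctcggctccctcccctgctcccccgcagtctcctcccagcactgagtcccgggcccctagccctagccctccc
Col3a1: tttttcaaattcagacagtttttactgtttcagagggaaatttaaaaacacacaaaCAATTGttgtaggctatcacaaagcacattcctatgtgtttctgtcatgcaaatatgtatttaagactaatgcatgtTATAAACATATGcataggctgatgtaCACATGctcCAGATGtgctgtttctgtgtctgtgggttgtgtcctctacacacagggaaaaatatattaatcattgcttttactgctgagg
Lrat: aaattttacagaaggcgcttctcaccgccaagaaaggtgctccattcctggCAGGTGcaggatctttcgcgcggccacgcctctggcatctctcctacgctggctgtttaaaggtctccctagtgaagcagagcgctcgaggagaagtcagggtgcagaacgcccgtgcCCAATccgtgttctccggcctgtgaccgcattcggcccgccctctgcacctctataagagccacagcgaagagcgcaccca

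These stretches lie at chr8:57320733-57320982 for Hand2 (plus strand), chr6:4505368-4505617 for Col1a2 (plus strand), chr1:45311288-45311537 for Col3a1 (plus strand) and chr3:82903975-82904224 for Lrat (minus strand). The Hand2 stretch holds 2 CANNTG and 2 CCAAT matches, and that of Lrat 1 of each. Col3a1 has 4 CANNTG matches and 1 TATAAA, and Col1a2 has 1 CCAAT and no CANNTG. The same windows of Des, Reln and Rgs5 hold 2, 1 and 0 CANNTG matches. Of 32536 promoter windows of this length in the RefSeq table, 66.2% hold CANNTG, 33.8% CCAAT and 12.3% TATAAA. A match of these letters is a description and not a binding site. RefSeq promoters of Col1a1, Dcn and Pdgfrb were not used here.

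Hand2 fell in the livers of low-dose mice relative to controls, the only member to pass the test in any comparison. In low-dose mice 1 to 6 its levels were -4.29, -4.24, -3.82, -4.05, -4.24 and -3.99, against -3.16, -3.25, -3.23, -3.17, -3.39 and -2.94 in controls 1 to 6. The groups did not overlap in level: the highest low-dose mouse was below the lowest control. Before scaling they did overlap, with a log2 intensity of 4.50 in low-dose mouse 3 and 4.32 in control mouse 1. The probe was dim, with a mean log2 intensity of 4.41 over the arrays. The mean was -4.10 ± 0.185 in low-dose mice and -3.19 ± 0.149 in controls (SD, n = 6 each), a log2 fold change of -0.91 ± 0.173 SE, or 0.531 of the control level. The adjusted p was 0.0436 by limma over 17682 genes, with a 95% confidence interval of -1.28 to -0.55. A 2-sided exact permutation test of this gene alone gave p = 0.00217, the smallest that 6 mice against 6 allow. Groups that do not overlap always give this value, so it adds nothing to the separation. It is unadjusted, for a gene chosen with earlier results of these data known.

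That call was 1 of 10 members. Over all genes 43 passed at the low dose (0.243%), 16 of them lower (0.0905%). Hand2 ranked 23 by p. Groups that did not overlap, with the low dose lower, were found for 1.05% of genes. On each of the 4 slides that held both groups the low-dose mice were lower, by differences between -1.19 and -0.59. Position on the slide went largely with group, so these differences do not remove it. The adjusted p is close to the threshold: it was 0.115 with slide as a block, where the log2 fold change was -0.88, and 0.382 with array brightness as a covariate, where it was -0.99. Normexp background correction gave -0.65 with an adjusted p of 0.489. The deposited value table gave -0.31 with an adjusted p of 0.0825.

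At the high dose Hand2 was uneven from mouse to mouse. High-dose mice 1 to 6 had levels of -3.13, -4.40, -3.84, -3.47, -3.28 and -3.95. Mice 1 and 5 lay within the range of the controls, and mice 2, 3 and 6 within or below that of the low-dose mice. The mean was -3.68 ± 0.475 in high-dose mice and -3.19 ± 0.149 in controls (SD, n = 6 each), a log2 fold change of -0.49 ± 0.173 SE (limma, unadjusted p = 0.0117, adjusted p = 0.685). High-dose mice were lower on all 4 slides with both groups, by differences between -1.15 and -0.08, again without position being modelled. Against the low dose, Hand2 was at 0.43 ± 0.173 SE in high-dose mice (limma, unadjusted p = 0.0248, adjusted p = 0.573). The size of its difference from control thus has not been shown to differ between the doses.

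A second Hand2 probe was placed over nearly the same stretch of genome. How much sequence the 2 probes share was not analysed here. The probe read above (A_51_P147850) is placed at chr8:60214596-60215955 and the second (A_52_P420479) at chr8:60214559-60215918, both on the plus strand of build mm8. Each spans 1360 bases of genome, where most probes of the other members span 60. The second probe was dimmer and well above background on 15 of 18 arrays. Its levels were -5.51 to -4.76 in low-dose mice, with a median of -4.80, against -4.94 to -3.85 in controls, with a median of -4.40. These groups overlapped. The log2 fold change was -0.52 ± 0.229 SE at the low dose (limma, each probe tested alone, unadjusted p = 0.035, adjusted p = 0.356) and -0.20 ± 0.229 SE at the high dose (adjusted p = 0.87). After subtraction of group means both probes had a Pearson r of 0.495 across the 18 mice (permutation p = 0.0806, adjusted p = 0.107 over 4 probe pairs) and a Spearman rho of 0.247 (permutation p = 0.376, adjusted p = 0.376). The r was 0.0528 without the 2 mice farthest from the median on the brighter probe, the rule used for all probe pairs below.

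**Figure D1:**
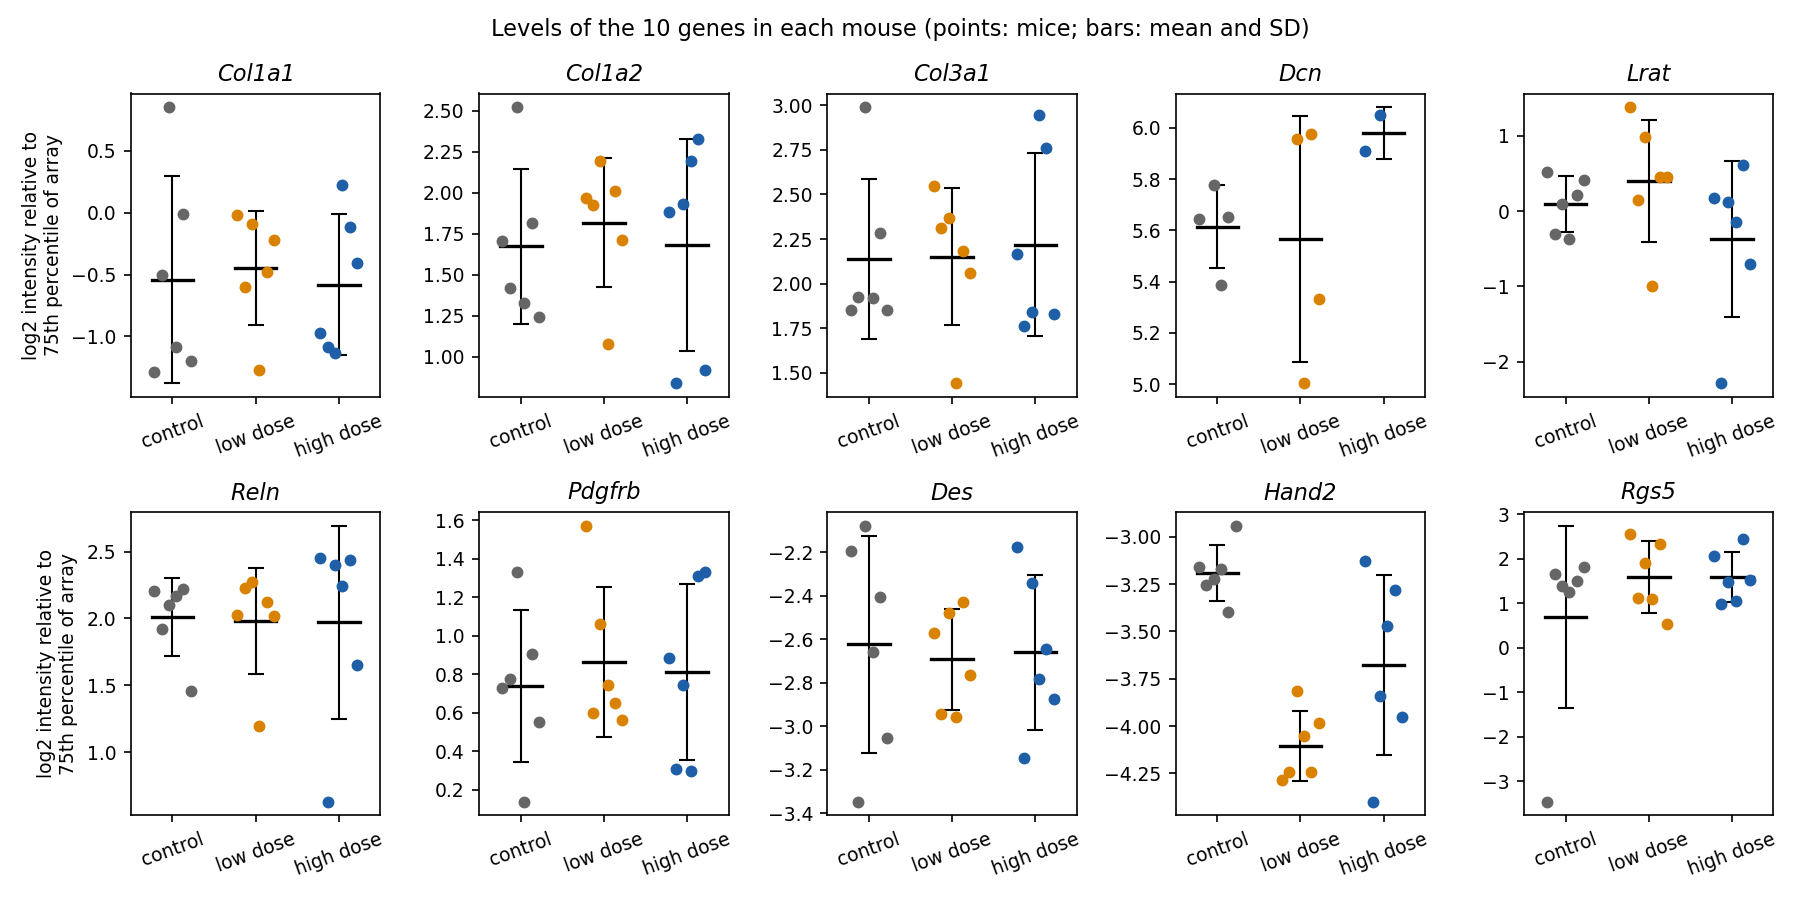
Levels of the 10 genes by mouse: each point is 1 mouse, the horizontal axis gives the group (control, low dose, high dose), the vertical axis log2 intensity relative to the array's 75th percentile, and the bars the mean and SD. Each panel has its own vertical scale. For Hand2 the 6 low-dose points lie below all 6 controls, and for Rgs5 control mouse 1 lies far below the rest.

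None of the 3 collagen genes passed the test in any comparison, with log2 differences between -0.14 and 0.14. Col1a1 and Col1a2 encode the chains of type I collagen and Col3a1 that of type III. Col1a1 (A_52_P525107, chr11:94767851-94767910, plus strand, mm8) ran from -1.29 to 0.85 in controls (median -0.80), -1.27 to -0.02 in low-dose mice (median -0.35) and -1.14 to 0.22 in high-dose mice (median -0.69). Its log2 fold change was 0.09 ± 0.350 SE at the low dose (limma, adjusted p = 0.952) and -0.04 ± 0.350 SE at the high dose (adjusted p = 0.987). The 95% intervals, -0.64 to 0.83 and -0.78 to 0.70, leave room for changes of either sign. This probe was printed on 10 spots per array, and the median SD between these spots was 0.0693, well under the SD of 0.836 between control mice.

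Col1a2 (A_51_P182303, chr6:4490619-4490678, plus strand, mm8) was at 1.24 to 2.52 in controls (median 1.56), 1.08 to 2.20 in low-dose mice (median 1.95) and 0.84 to 2.33 in high-dose mice (median 1.91). The differences from control were 0.14 ± 0.282 SE at the low dose (limma, adjusted p = 0.904, 95% interval -0.45 to 0.74) and 0.01 ± 0.282 SE at the high dose (adjusted p = 0.996, interval -0.59 to 0.60). Both dosed groups spread over nearly the whole range of the controls. Col3a1 (A_51_P515605, chr1:45293290-45293349, plus strand, mm8) was at 1.85 to 2.99 in controls (median 1.92), 1.44 to 2.55 in low-dose mice (median 2.25) and 1.76 to 2.95 in high-dose mice (median 2.00). Its differences were 0.02 ± 0.249 SE (limma, adjusted p = 0.988, interval -0.51 to 0.54) and 0.08 ± 0.249 SE (adjusted p = 0.968, interval -0.44 to 0.61). Control mouse 3 was the highest control for all 3 collagen genes, at 0.85 for Col1a1, 2.52 for Col1a2 and 2.99 for Col3a1.

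A second Col1a1 probe (A_51_P377094, chr11:94766828-94766887, plus strand, mm8) was dim and well above background on 14 arrays. It gave a log2 fold change of 0.76 ± 0.463 SE at the low dose (limma, each probe tested alone, adjusted p = 0.548) and 0.39 ± 0.463 SE at the high dose (adjusted p = 0.88). Both probes of the gene went together across mice, with an r of 0.790 (permutation p = 0.00107, adjusted p = 0.00214) and a rho of 0.713 (permutation p = 0.00428, adjusted p = 0.00856). Without the 2 farthest mice r was 0.695. The other 6 probes of the set, for Col1a1, Col1a2, Col3a1 (2 probes), Dcn and Reln, did not pass the filter: 5 were well above background on 0 arrays and 1 Col3a1 probe on 2.

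Dcn encodes decorin, a small proteoglycan that binds collagen fibrils. Its single kept probe (A_51_P334104, chr10:96947287-96947346, plus strand, mm8) was well above background on all 18 arrays, but the scanner software marked its spot as an outlier on 8, which left 4 controls, 4 low-dose mice and 2 high-dose mice. The levels were 5.39 to 5.78 in controls, 5.00 to 5.98 in low-dose mice and 5.91 and 6.05 in high-dose mice. The log2 fold change over these mice was -0.05 ± 0.224 SE at the low dose (limma, adjusted p = 0.963) and 0.36 ± 0.274 SE at the high dose (adjusted p = 0.829). With the marked spots kept, in a setting chosen after seeing the data, the low-dose value was 0.13 and the high-dose value 0.037.

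Lrat encodes lecithin retinol acyltransferase, the enzyme of vitamin A storage, and had the largest SE of the members after Rgs5. Its brighter probe (A_52_P669005, chr3:82978810-82978869, minus strand, mm8) was at 1.38, 0.14, 0.98, -0.996, 0.45 and 0.45 in low-dose mice 1 to 6, against 0.52, -0.30, 0.09, -0.38, 0.22 and 0.42 in controls 1 to 6. The low-dose mice held both the highest and the lowest of these values, in mice 1 and 4. The log2 fold change was 0.31 ± 0.428 SE (limma, adjusted p = 0.847, 95% interval -0.60 to 1.21). High-dose mice 1 to 6 had 0.18, -2.29, 0.12, -0.14, 0.61 and -0.70, with mouse 2 far below the others. The difference from control was -0.47 ± 0.428 SE (adjusted p = 0.855), and that from the low dose -0.77 ± 0.428 SE (adjusted p = 0.739).

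The dimmer Lrat probe (A_51_P350033, chr3:82981614-82981673, minus strand, mm8) was also well above background on all 18 arrays. It was at -0.24, -1.28, -0.19, -1.29, -0.81 and -0.64 in low-dose mice 1 to 6, against -1.33, -1.40, -1.61, -1.91, -2.02 and -1.47 in controls 1 to 6. Each low-dose mouse was above every control, as was the case for 0.814% of the 25427 kept probes. The log2 fold change was 0.88 ± 0.303 SE (limma, each probe tested alone, unadjusted p = 0.00952, adjusted p = 0.234), which did not pass. High-dose mice gave 0.05 ± 0.303 SE against controls (adjusted p = 0.981) and -0.84 ± 0.303 SE against low-dose mice (unadjusted p = 0.0133, adjusted p = 0.486). Whether the low-dose differences of the 2 probes differ was not tested. Their r was 0.890 (permutation p = 9e-05, adjusted p = 0.00036) and their rho 0.845 (permutation p = 0.00012, adjusted p = 0.00048), with an r of 0.749 without the 2 farthest mice.

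**Figure D2:**
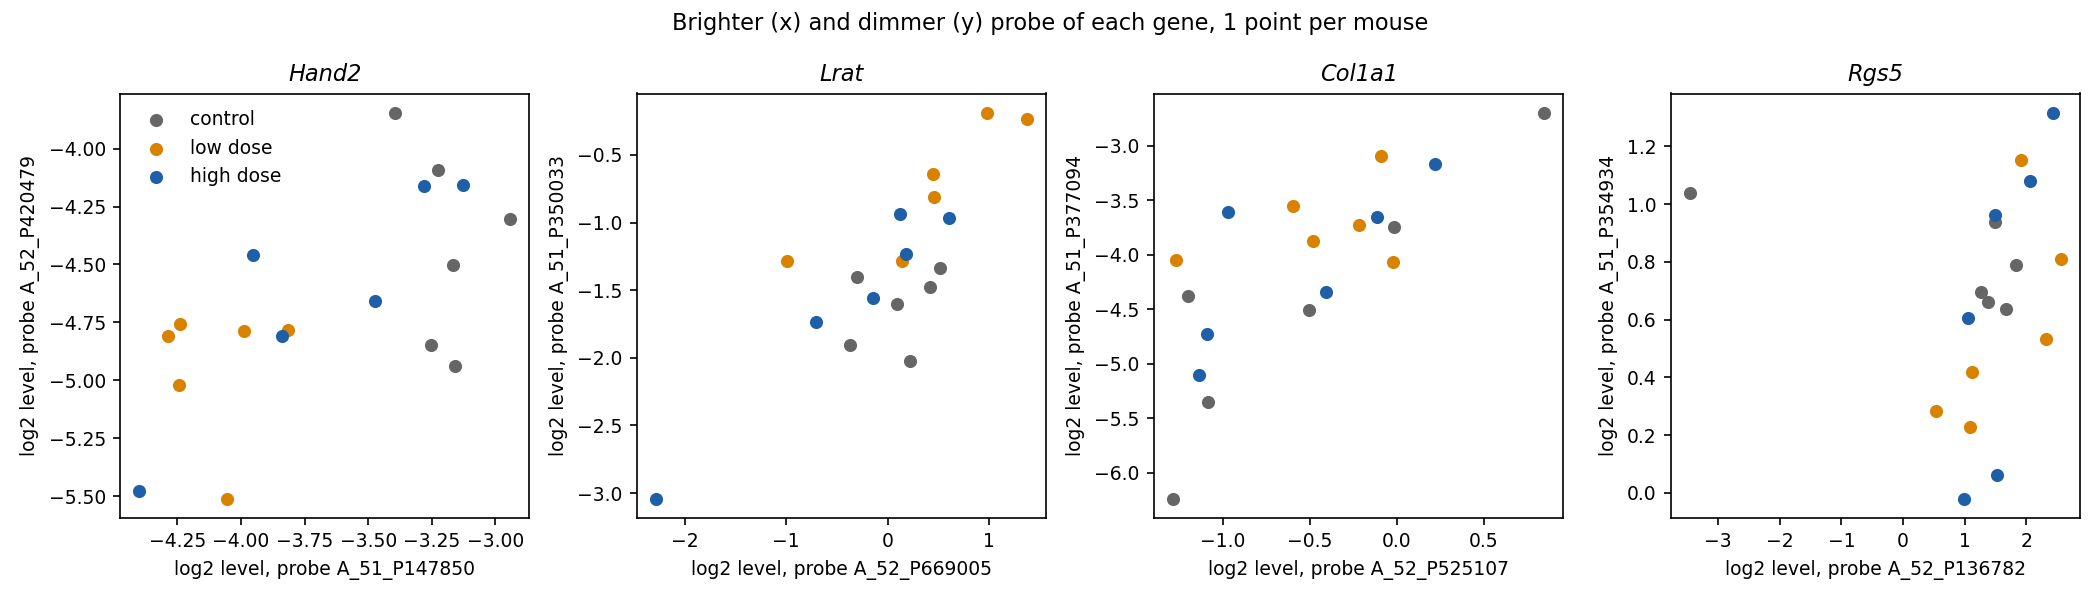
Level on the brighter probe (horizontal axis) against that on the dimmer probe (vertical axis) for the 4 genes with 2 kept probes, in log2 intensity relative to the array's 75th percentile, 1 point per mouse and 1 colour per group. The 2 Lrat probes and the 2 Col1a1 probes follow each other, with r of 0.890 and 0.790 after group means were subtracted, and 1 control stands apart for Rgs5 on the horizontal axis only.

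Reln encodes reelin, a secreted glycoprotein that stellate cells express in liver. Reln (A_51_P365369, chr5:21396483-21396542, minus strand, mm8) was at 1.46 to 2.22 in controls (median 2.13), 1.20 to 2.27 in low-dose mice (median 2.07) and 0.63 to 2.45 in high-dose mice (median 2.32). The differences from control were -0.03 ± 0.277 SE at the low dose (limma, adjusted p = 0.978, 95% interval -0.62 to 0.55) and -0.04 ± 0.277 SE at the high dose (adjusted p = 0.983, interval -0.63 to 0.54). Low-dose mouse 4 (1.20) and high-dose mouse 2 (0.63), the lowest of their groups, were also the lowest of their groups for Lrat. The median SD over the 10 spots of this probe was 0.0495.

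Pdgfrb encodes the receptor for platelet-derived growth factor B, a mitogen of stellate cells. Its probe (A_51_P150964) was at 0.14 to 1.33 in controls (median 0.75), 0.56 to 1.57 in low-dose mice (median 0.70) and 0.30 to 1.33 in high-dose mice (median 0.81). The log2 fold changes were 0.13 ± 0.229 SE at the low dose (limma, adjusted p = 0.895) and 0.07 ± 0.229 SE at the high dose (adjusted p = 0.969). Des encodes desmin, the intermediate filament of muscle and of rodent stellate cells. Its probe (A_51_P335969, chr1:75249977-75250202, plus strand, mm8) was at -3.35 to -2.08 in controls (median -2.53), -2.96 to -2.43 in low-dose mice (median -2.67) and -3.14 to -2.18 in high-dose mice (median -2.71). Its log2 fold changes were -0.07 ± 0.210 SE (adjusted p = 0.942) and -0.04 ± 0.210 SE (adjusted p = 0.982). The 3 groups overlapped for both genes.

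Rgs5 encodes a regulator of G protein signalling found in pericytes and other mural cells. Its brighter probe (A_52_P136782, chr1:171529565-171529624, plus strand, mm8) was at -3.46 in control mouse 1 and at 1.26 to 1.82 in the other controls. Low-dose mice ran from 0.53 to 2.56 (median 1.51) and high-dose mice from 0.99 to 2.43 (median 1.51). The log2 fold changes, 0.89 ± 0.707 SE at the low dose (limma, adjusted p = 0.689) and 0.90 ± 0.707 SE at the high dose (adjusted p = 0.831), rest on that 1 control. Without control mouse 1 they were 0.064 and 0.066. On the other kept probe (A_51_P354934, chr1:171531362-171531421, plus strand, mm8) control mouse 1 was at 1.04, the highest control, and the log2 fold changes were -0.22 ± 0.216 SE (each probe tested alone, adjusted p = 0.74) and -0.13 ± 0.216 SE (adjusted p = 0.928). The 2 probes had an r of 0.122 (permutation p = 0.453, adjusted p = 0.453) and a rho of 0.331 (permutation p = 0.144, adjusted p = 0.191), and an r of 0.645 without the 2 farthest mice.

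**Figure D3:**
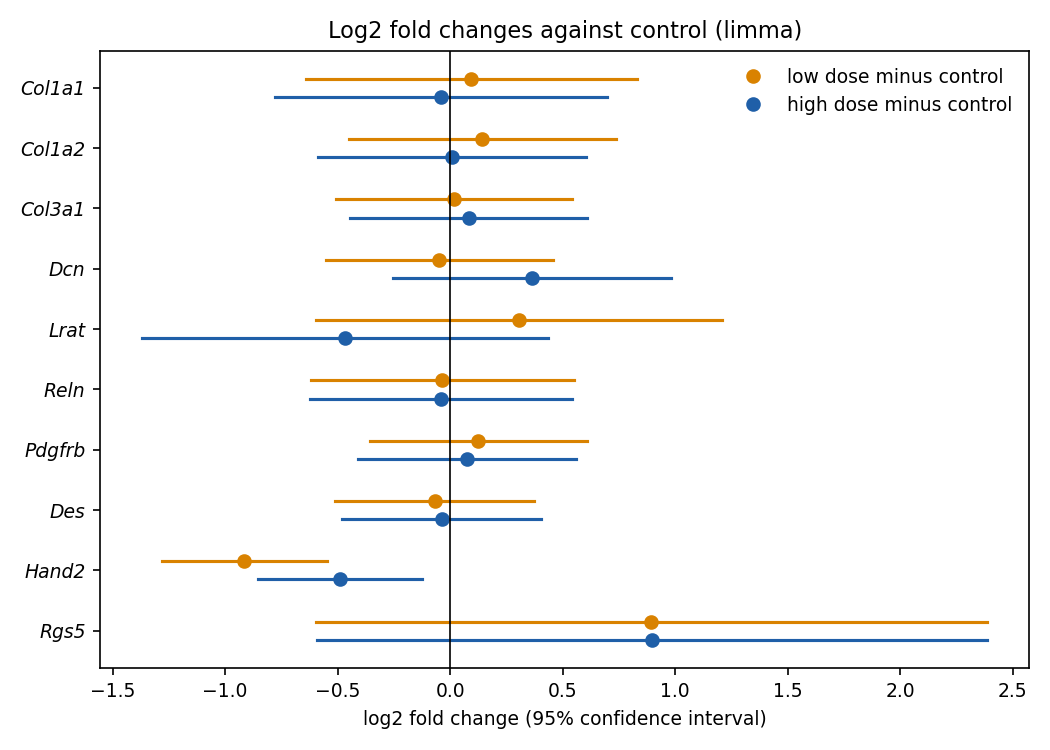
Log2 fold changes of the 10 genes against control, with low dose minus control above high dose minus control for each gene, from limma over 18 mice. Points are estimates and lines 95% confidence intervals. Both Hand2 intervals lie below 0, though the high dose did not pass after adjustment (adjusted p = 0.685), and all other intervals include 0.

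Low-dose mice exceeded controls in 6 of the 10 members and were below them in 4, and the median log2 fold change was 0.055, beside -0.023 over all genes tested. High-dose mice exceeded controls in 5 members and were below them in 5, with a median of -0.014 beside -0.0048 over all genes. Against control at the high dose limma called 0 members and 0 of 17682 genes (0%). At an unadjusted p under 0.05 there were 1 member, Hand2, and 1232 genes (6.97%). In high against low dose 0 members were among the 5 genes called (0.0283%), and 1 member, again Hand2, had an unadjusted p under 0.05, as did 7.69% of genes. At the low dose against control that count was 1 member and 11.6% of genes. Both doses share the same controls, so their fold changes are not independent.

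Several of these genes went together from mouse to mouse once differences between the diet groups were removed. For each of the 45 pairs the correlation across mice was taken after the mean of each group was subtracted, with a 2-sided permutation test within groups and adjustment over the 45 pairs. Of these, 43 had a positive Pearson r, with a median of 0.427, and 11 passed the threshold by Pearson and 8 by Spearman. With slide means also removed 12 pairs passed. Mice were still permuted within groups and not within slides there, so the p of that setting are approximate and may be too small. With normexp background correction 6 passed, 3 of them among the 11. With the dimmer probes of Col1a1, Lrat, Hand2 and Rgs5, chosen after seeing the data, 11 pairs passed, 7 of them among these 11. The r of Rgs5 then rose from 0.13 to 0.78 with Lrat, from 0.05 to 0.74 with Reln and from 0.14 to 0.70 with Col1a2. With Col1a1 it fell from 0.34 to 0.12. Only 4 pairs passed without high-dose mouse 2, in a setting chosen after seeing the data, and 1 when the 2 farthest mice of each pair were left out. For comparison, the middle 90% of 17208 genes had an r between -0.47 and 0.53 with Col1a2, -0.51 and 0.56 with Lrat, -0.51 and 0.60 with Reln, and -0.45 and 0.55 with Des. The part of RNA quality and labelling, which genes on the same arrays share, was not tested.

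The pairs with the highest Pearson r were collagens, while by Spearman the highest rho was that of Col1a2 and Dcn over 10 mice. Col1a2 and Col3a1 had an r of 0.856 (permutation p = 4e-05, adjusted p = 0.00135) and a rho of 0.823 (permutation p = 3e-05, adjusted p = 0.00135), with an r of 0.870 without the 2 farthest mice and 0.863 with slide means also removed. Col1a1 and Col3a1 had an r of 0.870 (permutation p = 6e-05, adjusted p = 0.00135) and a rho of 0.820 (permutation p = 0.00014, adjusted p = 0.00315), and 0.756 without the 2 farthest. Col1a1 and Col1a2, the 2 chains of the same fibre, had a lower r of 0.658 (permutation p = 0.00529, adjusted p = 0.0269) and a rho of 0.600 (permutation p = 0.0122, adjusted p = 0.0609), and 0.406 without the 2 farthest. Among these 3 pairs, the r of the type I pair moved most when the 2 mice farthest for the first gene were left out.

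Col1a2 also passed with the retinoid storage gene and reelin. Col1a2 and Reln had an r of 0.792 (permutation p = 0.00074, adjusted p = 0.0111) and a rho of 0.773 (permutation p = 0.00217, adjusted p = 0.0326), and 0.659 without the 2 farthest mice. Col1a2 and Lrat had an r of 0.721 (permutation p = 0.00186, adjusted p = 0.017) and a rho of 0.676 (permutation p = 0.00558, adjusted p = 0.0359), and 0.547 without the 2 farthest. Within the groups of 6 mice this r was 0.177 in controls, 0.860 in low-dose mice and 0.856 in high-dose mice. Lrat and Reln had an r of 0.806 (permutation p = 0.00439, adjusted p = 0.0269) and a rho of 0.672 (permutation p = 0.00795, adjusted p = 0.0447), but r was 0.273 without high-dose mouse 2 and low-dose mouse 4, the 2 farthest. The r of that pair thus depended strongly on these 2 mice. Within the groups it was -0.202 in controls, 0.775 in low-dose mice and 0.984 in high-dose mice. With the dimmer Lrat probe r was 0.723 over the 18 mice. Des passed by permutation with Reln (r = 0.624, adjusted p = 0.017; rho 0.618, adjusted p = 0.0359), Col1a2 (r = 0.656, adjusted p = 0.0269; rho 0.680, adjusted p = 0.0342) and Lrat (r = 0.552, adjusted p = 0.0269; rho 0.552, adjusted p = 0.0779). The r of Des and Lrat lies inside the middle 90% of all genes for both. Without the 2 farthest mice these r were 0.587, 0.565 and 0.424. Dcn, with 10 mice, passed by permutation with Col1a2 (r = 0.834, adjusted p = 0.0179; rho 0.867, adjusted p = 0.0342) and Des (r = 0.834, adjusted p = 0.0394; rho 0.818, adjusted p = 0.128).

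**Figure D4:**
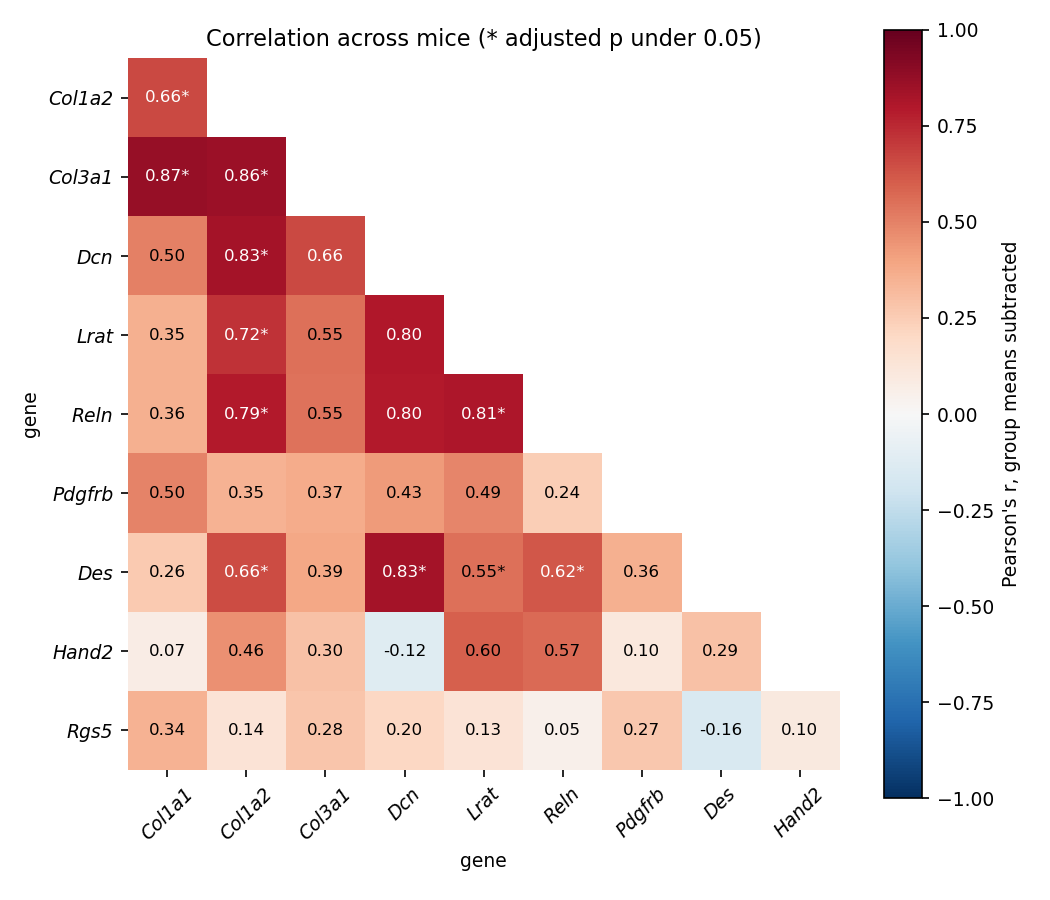
Pearson correlation of each pair of the 10 genes (both axes) over 18 mice, or 10 mice for pairs with Dcn, after group means were subtracted. Colour and number give r, and stars mark the 11 pairs with a permutation p under 0.05 after adjustment over 45 pairs. Each gene is read on its brightest kept probe, and on these probes Hand2, Rgs5 and Pdgfrb have no starred pair.

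On its brighter probe Hand2 passed with no other member. With the dimmer probes of Col1a1, Lrat, Hand2 and Rgs5, its r was 0.629 with Reln, 0.621 with Col1a1 and 0.474 with Lrat. The values that follow are those of the brighter probes. The highest r of Hand2 was with Lrat, at 0.598 (permutation p = 0.038, adjusted p = 0.114; rho 0.445, permutation p = 0.108, adjusted p = 0.256), and was 0.421 without the 2 farthest mice. With Reln it was 0.566 (permutation p = 0.0812, adjusted p = 0.174, rho 0.410, permutation p = 0.179, adjusted p = 0.349), and 0.235 without the 2 farthest. Within the groups the r of Hand2 with Lrat was 0.303 in controls, -0.064 in low-dose mice and 0.870 in high-dose mice. With Reln these values were -0.776, -0.040 and 0.872, so both r were high and positive in the high-dose group only. High-dose mouse 2 had the lowest Hand2, Lrat, Reln and Col1a2 levels of all 18 mice. Of the 45 pairs 7 passed without control mouse 3.

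**Figure D5:**
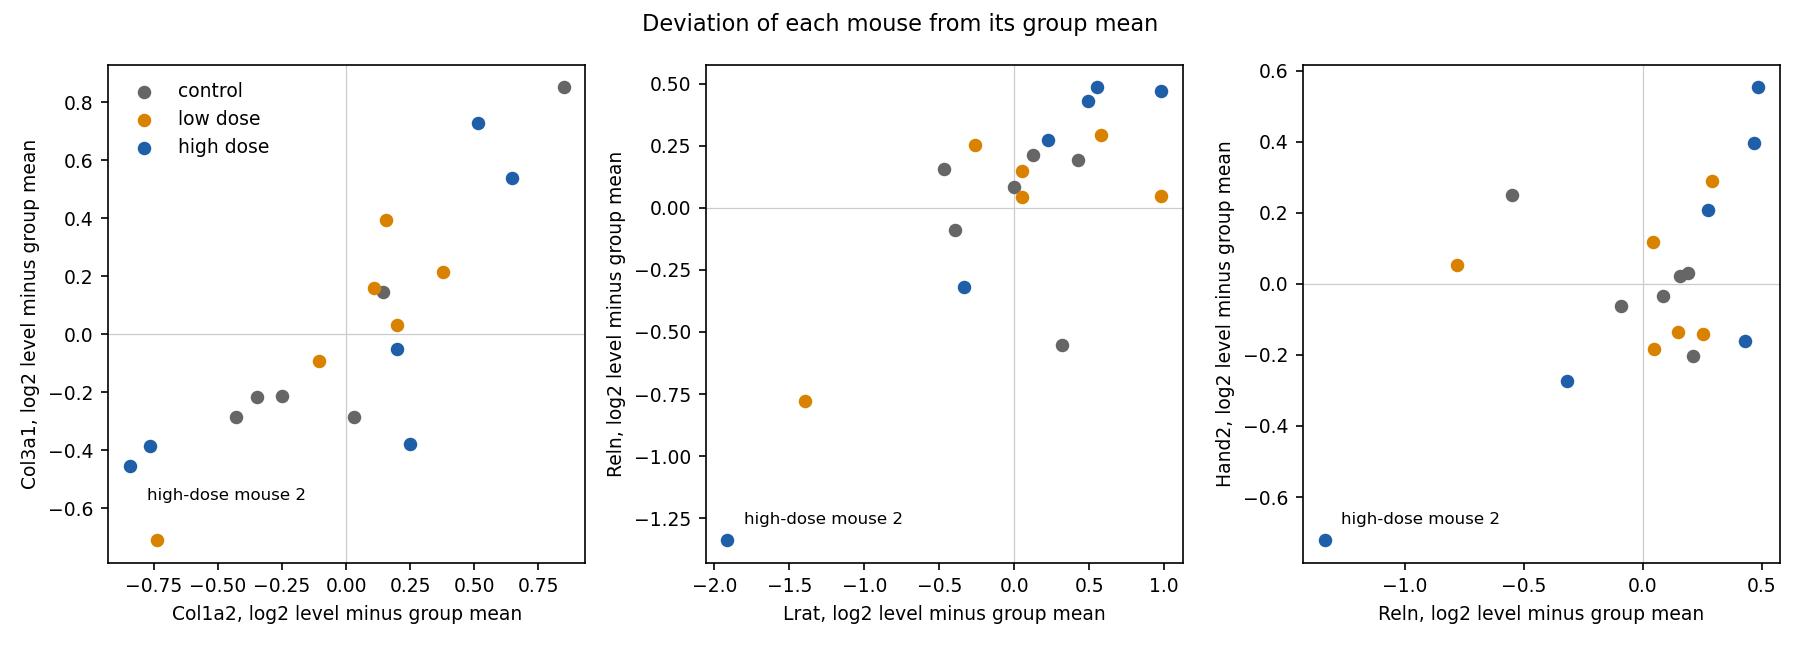
Deviation of each mouse from the mean of its group, in log2 units, for Col1a2 against Col3a1, Lrat against Reln, and Reln against Hand2 (horizontal against vertical axis), 1 point per mouse and 1 colour per group. The first pair rises together in all 3 groups (r = 0.856), whereas high-dose mouse 2 is the farthest point of the other two.

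Genes outside the set that varied most like the mean of Col1a1, Col1a2 and Col3a1 over the 18 mice, with group means subtracted, were Col5a1, a chain of type V collagen (r = 0.834), Col6a1 (0.820) and Col6a3 (0.811), chains of type VI collagen, Adamts2, which removes the N-terminal propeptide of fibrillar procollagens (0.819), and Prss23, a serine protease (0.810). Of 17206 genes, the middle 90% had an r with the collagen mean between -0.44 and 0.46. Those most like Hand2 were Klk11 (0.862), Npm2 (0.826), Calcoco1 (0.826), Qtrt2 (0.823) and Grik4 (0.823), where the middle 90% of 17208 genes lay between -0.54 and 0.54. Both lists were picked as the highest r among all these genes, and no r in them was tested. For Hand2 they refer to the brighter, still dim probe, whose r with the second Hand2 probe was 0.495. None of these 10 genes passed the test at either dose against control. The largest of their low-dose differences was -0.41 for Calcoco1 (limma, adjusted p = 0.541).

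Markers of other cell types in the same livers were measured beside these results. The mean level of 10 sinusoidal endothelial markers followed Reln (r = 0.808, permutation p = 9e-05, adjusted p = 0.00324; rho 0.756, permutation p = 0.00101, adjusted p = 0.0238) and Lrat (r = 0.765, permutation p = 0.00026, adjusted p = 0.00624; rho 0.736, permutation p = 0.00132, adjusted p = 0.0238). It also followed Col1a2 (r = 0.759, adjusted p = 0.0267; rho 0.715, adjusted p = 0.0388) and Des (r = 0.755, adjusted p = 0.0173; rho 0.744, adjusted p = 0.0238) by permutation. Without the 2 mice farthest for the member gene, these r were 0.774 for Reln, 0.657 for Lrat, 0.546 for Col1a2 and 0.903 for Des. All 10 endothelial markers were well above background on all 18 arrays, and their part in the correlations among the stellate genes was not tested. In all, 72 such relations were computed (9 genes and 8 marker lists), of which 8 passed by Pearson: these 4, and the same 4 genes with the mean of Cygb, Ecm1 and Colec11, the stellate markers outside the set. By Spearman 8 also passed, but Lrat with those stellate markers did not (rho 0.560, permutation p = 0.0232, adjusted p = 0.158; r = 0.744, adjusted p = 0.0366). Col1a1 with 8 hepatocyte markers passed by Spearman, with a rho of -0.711 (permutation p = 0.0017, adjusted p = 0.0238) beside an r of -0.569 (permutation p = 0.0255, adjusted p = 0.153). Hand2 passed with no marker list, and its r with 8 Kupffer cell markers was -0.568 (permutation p = 0.0105, adjusted p = 0.0757; rho -0.476, permutation p = 0.0453, adjusted p = 0.251), or -0.372 without the 2 farthest mice.

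Marker sums, on a linear scale relative to the 75th percentile of each array, were set beside the low-dose fall of Hand2. The 9 stellate markers, Hand2 among them, summed to 46.9 to 76.4 in low-dose mice and 50.6 to 84.7 in controls. Like every sum here, this weights bright probes most, and dim ones such as Hand2 add little. Gene by gene, 5 had a higher mean in low-dose mice and 4 a lower one, with a median log2 fold change of 0.06. The 10 sinusoidal endothelial markers summed to 29.1 to 63.9 in low-dose mice and 29.9 to 55.2 in controls. These ranges overlapped for the most part. The 8 of 9 portal fibroblast markers that could be read (Gli1 was well above background on 0 arrays) summed to 22.5 to 44.7 in low-dose mice and 13.5 to 27.5 in controls. A sum weights bright probes most: 3 of these 8 markers had a higher mean in low-dose mice and 5 a lower one, with a median log2 fold change of -0.11, and Gas6 was at 0.96 ± 0.319 SE (limma, adjusted p = 0.236). The 3 of 6 mesothelial markers that could be read (Wt1, Upk1b and Lrrn4 were well above background on 0 arrays) summed to 0.302 to 0.909 in low-dose mice and 0.0842 to 0.515 in controls. The 8 of 10 hepatocyte markers that could be read summed to 721 to 923 in low-dose mice and 779 to 1070 in controls. The 8 Kupffer cell markers summed to 35.4 to 97.8 in low-dose mice and 28.9 to 87.7 in controls, and 5 of 6 cholangiocyte markers to 9.60 to 28.3 in low-dose mice and 8.45 to 20.8 in controls. No marker in these lists other than Hand2 passed the limma test at the low dose, and the part of portal, mesothelial or hepatocyte RNA in the Hand2 value was not tested.

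Among 24 genes of the resting stellate cell, 1 passed at the low dose, Hand2, and the median log2 fold change was -0.12, beside -0.02 over all genes. Hgf, the hepatocyte growth factor that stellate cells supply, was at -0.37 ± 0.139 SE at the low dose (limma, adjusted p = 0.282) and -0.35 ± 0.139 SE at the high dose (adjusted p = 0.685). Of 15 collagen genes 12 had a higher mean in low-dose mice than in controls and 0 passed, with a median of 0.10. At an unadjusted p under 0.05 there was 1, beside 11.6% of all genes. That 1 was Col15a1, a basement membrane collagen, at 0.87 ± 0.242 SE (adjusted p = 0.151). Of 18 small proteoglycans and other matrix proteins 5 were higher and 0 passed, also at an unadjusted p under 0.05, with a median of -0.09. Of 8 markers of activated myofibroblasts and smooth muscle 0 passed, also at an unadjusted p under 0.05. Of these, 5 were higher and 3 lower in low-dose mice than in controls (median 0.03), and 6 were higher and 2 lower in high-dose mice (median 0.16). Among the lower ones, Acta2, the smooth muscle actin that marks activation, was at -0.18 ± 0.129 SE (adjusted p = 0.644) at the low dose and -0.21 ± 0.129 SE (adjusted p = 0.779) at the high dose.

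Of 10 matrix proteases and inhibitors that could be read, 1 passed. Reck, a membrane-anchored inhibitor of matrix metalloproteinases, rose by 1.42 ± 0.159 SE at the low dose (limma, adjusted p = 0.00125). It was at 0.19 ± 0.159 SE at the high dose against control (adjusted p = 0.844), and fell by 1.23 in high-dose relative to low-dose mice (adjusted p = 0.00885). Mmp14, a membrane-bound metalloproteinase, was at -0.31 ± 0.149 SE at the low dose (adjusted p = 0.434). Of 15 genes of collagen processing and crosslinking 0 passed at the low dose. At an unadjusted p under 0.05 there was 1, beside 11.6% of all genes. It was P4ha2, a subunit of prolyl hydroxylase (0.59 ± 0.250 SE, adjusted p = 0.354).

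Of 16 genes of TGF-beta and PDGF signalling 11 had a higher mean in low-dose mice than in controls and 0 passed. Their median was 0.11, beside -0.02 over all genes. Smad3, which carries the TGF-beta signal to the nucleus, was at -0.44 ± 0.115 SE at the low dose (limma, adjusted p = 0.12) and -0.49 ± 0.115 SE at the high dose (adjusted p = 0.642). Pdgfa, a PDGF ligand, was at 0.71 ± 0.202 SE at the low dose (adjusted p = 0.16), and Tgfbr2, a TGF-beta receptor, at 0.40 ± 0.156 SE (adjusted p = 0.31). These 3 were the list's members with an unadjusted p under 0.05, beside 11.6% of all genes. Of 12 genes of retinoid storage 5 were higher at the low dose and 0 passed. Rbp4, the plasma carrier of retinol, was at -0.37 ± 0.126 SE (adjusted p = 0.248) and Stra6, a receptor for it, at 1.41 ± 0.606 SE (adjusted p = 0.366). At the high dose 0 members of these pathway lists passed against control by limma. Hand2, Hgf, P4ha1, Smad3, Tgfbr2, Rbp4 and Aldh1a2 had an unadjusted p under 0.05 there, as did 6.97% of all genes. They came from the lists of the resting stellate cell (24 genes), collagen processing (15), TGF-beta and PDGF signalling (16) and retinoid storage (12). The collagen, matrix protein and protease lists held no such gene.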

How the data were processed

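Per the file headers, the authors' scanner files came from Agilent Feature Extraction (9.5.3.1) and give background-subtracted spot intensity, with probe positions on build mm8. Agilent Feature Extraction 9.5 and limma are the tools in the submitters' processing notes, which state no steps here. The deposited value table holds log2 intensity for 22514 probes, with column medians of 7.91 to 7.94; its centring steps are not given in the sources used here.

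Each array's log2 intensities were centred on their 75th percentile. Outlier spots were dropped, not saturated ones, spots of a probe averaged, and probes kept when well above background on at least 6 of 18 arrays (25427 probes). The brightest kept probe stood for its gene (17683 genes, 17682 tested). Symbols outside the set were updated through RefSeq accessions, which matched 23374 of 41174 probes.

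Groups were compared with limma 3.58.1 in R 4.3.3 (lmFit, eBayes), all 18 mice in 1 model with group only, Benjamini-Hochberg over all genes, threshold 0.05, 2-sided. Correlations used 100000 permutations within groups. The members, gene lists and tests were chosen with earlier results of these data known. Genes named beside the members were list members past the threshold, otherwise up to 3 per list and dose with the smallest p, of which some are given, and the 5 most alike Hand2 and the collagen mean. The script was tested on simulated data. The number of arrays limits precision: the median SE was 0.165. Mouse numbers are not stated to pair mice, and no pairing was used. Deviations of same-numbered mice correlated at -0.31 to 0.35, above 0.1 in 8 of 18 pairs. Between high-dose mice and controls 1 to 6 they were 0.35, 0.157, 0.213, 0.128, 0.103 and -0.031. A slide is a set of arrays with a common scan time in the headers; position on it went largely with group and was not modelled. Alternatives were other scalings, background, filters, probe choices, weights, blocks and left-out mice.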

Additional observations from a re-analysis of the deposited data

Results flagged for a closer look

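The kept probes were checked for a mouse far from the others of its group, in 41 groups of 4 to 6 mice, and 3 values stood apart; chance alone marks about 1 in 20 groups. The brighter Rgs5 probe (A_52_P136782) was at -3.46 in control mouse 1, against 1.26 to 1.82 in the other controls, while the other Rgs5 probe placed that mouse highest of the controls. Reln was at 1.20 in low-dose mouse 4, against 2.02 to 2.27 in the other low-dose mice. The dimmer Hand2 probe (A_52_P420479) was at -5.51 in the same mouse, against -5.02 to -4.76 in the others.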

How the results depend on the processing

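Hand2 was lower at the low dose than in controls under all 17 other settings and with each of the 18 mice left out, by -0.99 to -0.31 and -0.97 to -0.86, but passed the threshold in only 9 of 17 and 6 of 18. It lost the call without any 1 control, without low-dose mouse 1, 2, 3, 5 or 6, or without high-dose mouse 3 (adjusted p up to 0.125 without low-dose mouse 1), and at 0.0739 without a filter on dim probes, 0.107 with the mean of the probes and 0.379 on the second probe, the last chosen after seeing the data. With mouse number as a replicate block Hand2 had an adjusted p of 0.0901. Its log2 fold change stayed the same, as it must with each number once per group. In that setting 5 genes passed at the low dose against control, 0 at the high dose against control and 0 between the doses. The 43 genes called at the low dose became 5 with normexp, 8 with scaling by the array median, 9 without the filter, 70 with all arrays above background, 15 with the mean of probes, 79 with only the groups compared, 72 with trend and robust, 143 with array weights, 2 with slide as a block, 0 with brightness as a covariate, and 2 to 73 with 1 mouse left out. High dose against control stayed at 0 throughout. The 5 genes of high against low dose became 1 with normexp, 1 without the filter, 11 with every probe tested alone, 0 with only the groups compared, 13 with array weights, 0 with slide as a block, and 1 to 9 with 1 mouse left out. The 11 correlated pairs became 6 with normexp, 1 without the 2 farthest mice, and 4 to 9 without high-dose mouse 2, control mouse 1 or control mouse 3, the last 3 chosen after seeing the data. The cause of these shifts was not tested. No other member passed under any setting or with any mouse left out. Signs of log2 fold changes that turned were all of members that had not passed. With normexp, low dose minus control was -0.14 for Col1a1, 0.19 for Dcn and 0.15 for Reln, high minus control 0.012 for Reln, and high minus low -0.095 for Col3a1 and -0.077 for Rgs5. With slide as a block, low minus control was -0.13 for Col1a1 and -0.11 for Col3a1, high minus control -0.074 for Col1a2 and -0.060 for Col3a1, and high minus low -0.0029 for Des; as a random block, -0.0099 for Col3a1 (low minus control) and -0.0060 for Col1a2 (high minus control). With brightness as a covariate, low minus control was -0.32 for Col1a1, -0.22 for Col3a1, 0.0032 for Dcn and 0.18 for Des, and high minus control -0.074 for Col1a2, -0.14 for Col3a1 and 0.20 for Des. With array weights, low minus control was -0.043 for Col3a1, high minus control 0.16 for Reln and 0.043 for Des, and high minus low 0.047 for Col1a2, 0.19 for Reln and 0.024 for Pdgfrb. With quantile normalisation, low minus control was 0.026 for Dcn, high minus control 0.00054 for Reln, and high minus low 0.00076 for Reln and -0.0079 for Des. With the array median, high minus control was -0.049 for Col1a2, and high minus low -0.028 for Des and -0.056 for Rgs5. In the deposited table, low minus control was 0.16 for Dcn and 0.032 for Reln, high minus control 0.0042 for Reln, and high minus low -0.023 for Dcn and -0.029 for Des. Dcn was 0.046 with the replicate block (low minus control), and 0.13 (low minus control) and -0.089 (high minus low) with outlier spots kept. Col1a1 was 0.17 with the mean of probes (high minus control). Second probes gave high minus control of 0.39 for Col1a1, 0.047 for Lrat and -0.13 for Rgs5, and low minus control of -0.22 for Rgs5. With 1 mouse left out some signs also turned, with no call: low minus control ran from -0.055 to 0.37 for Col1a1, -0.063 to 0.19 for Col3a1, -0.18 to 0.14 for Dcn, -0.14 to 0.12 for Reln, -0.016 to 0.24 for Pdgfrb and -0.21 to 0.041 for Des. Likewise, high minus control ran from -0.20 to 0.24 for Col1a1, -0.12 to 0.18 for Col1a2, -0.064 to 0.25 for Col3a1, -0.15 to 0.23 for Reln, -0.046 to 0.19 for Pdgfrb and -0.18 to 0.071 for Des, and high minus low ran from -0.28 to 0.034 for Col1a2, -0.080 to 0.16 for Col3a1, -0.16 to 0.26 for Reln, -0.16 to 0.089 for Pdgfrb, -0.066 to 0.13 for Des and -0.21 to 0.20 for Rgs5. Hand2 and Des had the dimmest of the probes read, nearest to background.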
